A study of Arabidopsis thaliana with 58 samples.

Results

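Glucosinolate synthesis in Arabidopsis was followed through 10 genes, chosen by gene ID from 33610 genes in the deposited gene table. They were MYB51, MYB34, MYB28, MYB29, CYP79B2, CYP79B3, CYP83B1, CYP83A1, CYP79F1 and SOT16, and all 10 were found. The choice was made with PKL peaks in 4 lines, H3K4 methylation in WT and pkl, and RNA in pkl already known, so the values of these 10 genes are given as a description, with no p-value. A further 59 genes of glucosinolate regulation, synthesis, transport and breakdown were tested beside them. All samples were whole seedlings, 9 days old, grown in continuous white light. WT was the Col-0 ecotype, and the pkl, jaw-5D, pifQ and hy5 mutants were named with no further description of their alleles. Chromatin immunoprecipitation with sequencing (ChIP-seq) used an antibody to PKL in WT, jaw-5D, pifQ and hy5, and antibodies to H3K4me1, H3K4me2 and H3K4me3 in WT and pkl. RNA was sequenced in pkl. Each group held 3 libraries, labelled as biological replicates, and n = 3 for every mean ± SD.

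Glucosinolates are sulfur-rich defence compounds of the cabbage order that myrosinases split when tissue is damaged. An indole branch starts from tryptophan and an aliphatic branch from methionine whose side chain is first lengthened. In each branch a CYP79 enzyme makes an aldoxime, a CYP83 enzyme oxidises it, and glutathione transfer, cleavage, glucosylation and sulfation finish the core. PKL (PICKLE) is a chromatin remodeler of the CHD3 family. H3K4me3 typically marks the start of transcribed genes, H3K4me2 lies around it and H3K4me1 in gene bodies. The jaw lines are known for excess of a microRNA against TCP factors, pifQ lacks several PIF factors that act downstream of phytochromes, and hy5 lacks the light-response factor HY5.

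Peak values below are base pairs (bp) of a gene covered by peaks, with the 1000 bp upstream included for PKL. They say how much of a gene lay under called peaks, not how strong the signal was, and the read depth behind the lists is unknown. The lists held 11379 to 13979 PKL peaks in the mutants but 821, 632 and 2824 in WT. The WT lists also stopped at a q-value of 0.01 and the others at 0.05, so that genotype and the way a list was made cannot be told apart in any PKL comparison with WT. The H3K4 lists held 14395 to 21880 peaks. RNA totals were 17300314 to 17656899 counts. PKL itself stood at 29.6, 31.9 and 33.9 TPM (a share of transcripts, normalised for length) in the 3 libraries labelled pkl, and no labelled WT RNA was analysed here to set beside them. Green shoot markers reached 481 to 24410 TPM and root markers 1.42 to 198.2 TPM. All 7 seed and embryo markers were at or near 0, the highest at 0.214 TPM and 3 of them at 0 in every library.

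Of the 10 genes, 6 belong to the indole branch and 4 to the aliphatic branch, here given with their TAIR10 positions. MYB51 (AT1G18570, chromosome 1, 6389411 to 6391267, plus strand) and MYB34 (AT5G60890, chromosome 5, 24494691 to 24496351, plus strand) encode factors that activate the indole branch. CYP79B2 (AT4G39950, chromosome 4, 18525246 to 18527579, plus strand) and CYP79B3 (AT2G22330, chromosome 2, 9488554 to 9491187, plus strand) encode the paralogous enzymes that turn tryptophan into its aldoxime. CYP83B1 (AT4G31500, chromosome 4, 15273471 to 15275310, minus strand) encodes the next enzyme, and SOT16 (AT1G74100, chromosome 1, 27864345 to 27865694, minus strand) a sulfotransferase of the last step. MYB28 (AT5G61420, chromosome 5, 24689151 to 24691095, minus strand) and MYB29 (AT5G07690, chromosome 5, 2446764 to 2448543, plus strand) encode the main activators of the aliphatic branch. CYP79F1 (AT1G16410, chromosome 1, 5608807 to 5611426, plus strand) and CYP83A1 (AT4G13770, chromosome 4, 7990485 to 7992311, minus strand) encode its aldoxime-forming and aldoxime-oxidising enzymes. Several lie beside relatives: MYB76, the next aliphatic MYB gene, starts 1781 bp after MYB29, CYP79F2 ends 1333 bp before CYP79F1, and SOT18 lies 151 bp past the end of SOT16. CYP79F1 and CYP79F2, CYP79B2 and CYP79B3, and SOT16 with SOT17 and SOT18 are close copies, so reads could be split between them, and their values are uncertain to that extent.

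PKL peaks were found at 8 of the 10 genes in the 9 mutant lists, and 0 of the 10 had a PKL peak in any of the 3 WT lists. Of nuclear genes, 46.9% had one in at least 1 mutant list and 7.19% in at least 1 WT list. CYP79B2 and CYP79F1 were at 0 bp in all 12 lists. The indole regulator MYB51 carried PKL peaks over 954, 1158 and 1202 bp in jaw-5D, over 0, 0 and 274 bp in pifQ and over 0 bp in each hy5 library. All 3 jaw-5D values lay above those of the other lines, with 1105 ± 132 bp in jaw-5D against 91.3 ± 158 bp in pifQ. Each jaw-5D list placed 2 peaks at MYB51, with summits 190 to 560 bp after its start and again 1464 to 1733 bp after it, inside the gene. These were peaks of modest rank, with a median at the 20.9th percentile of their own lists by −log10 q and a highest at the 47.9th.

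The other indole regulator, MYB34, had its longest cover in a different line. PKL peaks spanned 519, 631 and 420 bp of MYB34 in jaw-5D, 226, 456 and 0 bp in pifQ, and 1223, 1098 and 834 bp in hy5. Every hy5 value was above every value of the other lines, and jaw-5D and pifQ overlapped. The hy5 mean was 1052 ± 199 bp, 2.01 times that of jaw-5D and 4.63 times that of pifQ. All 3 hy5 lists held a peak just upstream of MYB34, with summits between −217 and −208 bp, where a single jaw-5D list (summit at −237 bp) and none of the pifQ lists had one. By −log10 q these hy5 peaks stood at the 0.71th, 45.9th and 27.9th percentile of their lists, and the jaw-5D peak at the 5.14th. The peak of hy5 replicate 1 had a −log10 q of 1.46, near the floor of its list (1.30). In the last exon of MYB34, summits lay 934 to 1271 bp after the start in all 3 jaw-5D lists, all 3 hy5 lists and 1 pifQ list.

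CYP79B3 and CYP83B1 were the genes with a PKL peak in all 9 mutant lists, 2 of 10, against 16.7% of nuclear genes. At CYP79B3 the cover was 385, 514 and 685 bp in jaw-5D, 659, 990 and 715 bp in pifQ, and 415, 331 and 450 bp in hy5. The pifQ values overlapped those of jaw-5D and lay above those of hy5 (788 ± 177 against 399 ± 61.2 bp). All 9 lists placed a summit 1441 to 1588 bp after the start of CYP79B3, which is inside its single intron, between exon edges at 1045 and 1797 bp. Single lists added a summit at 574 bp (pifQ replicate 2), at −1165 bp (jaw-5D replicate 3) and at −1146 bp (hy5 replicate 3). Its paralog CYP79B2 has an intron in the corresponding place and no PKL peak in any list.

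CYP83B1 had the most PKL cover of the 10 genes over all lists. The cover was 915, 979 and 820 bp in jaw-5D, 770, 557 and 613 bp in pifQ, and 484, 710 and 592 bp in hy5. The jaw-5D values lay above all others (905 ± 80.0 bp), while pifQ (647 ± 110 bp) and hy5 (595 ± 113 bp) overlapped. Peaks lay at both ends of the gene. Those at its end began inside the last exon and had summits 1951 to 2139 bp after the start of a gene of 1840 bp, and in 8 of 9 lists the peak also reached into the window of AT4G31490. The peak upstream was shared with AT4G31510 in all 9 lists, with summits between −848 and −708 bp, and jaw-5D replicate 1 added a peak with its summit at −65 bp. Peaks that span neighbouring genes cannot be assigned to CYP83B1 alone.

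The remaining genes had PKL peaks in few lists. MYB28 was covered by 281 bp in 1 jaw-5D list, by 226 bp in 1 pifQ list, and by 278 and 270 bp in 2 hy5 lists. All 4 of these peaks had summits −724 to −707 bp from the start of MYB28. MYB29 had 245 and 234 bp in 2 jaw-5D lists and 0 bp elsewhere. SOT16 was covered by 587, 393 and 229 bp in 1 list of each mutant, and CYP83A1 by 231 bp in hy5 replicate 3. Within every mutant line, these 4 genes had at least 1 list without a peak.

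**Figure D1:**
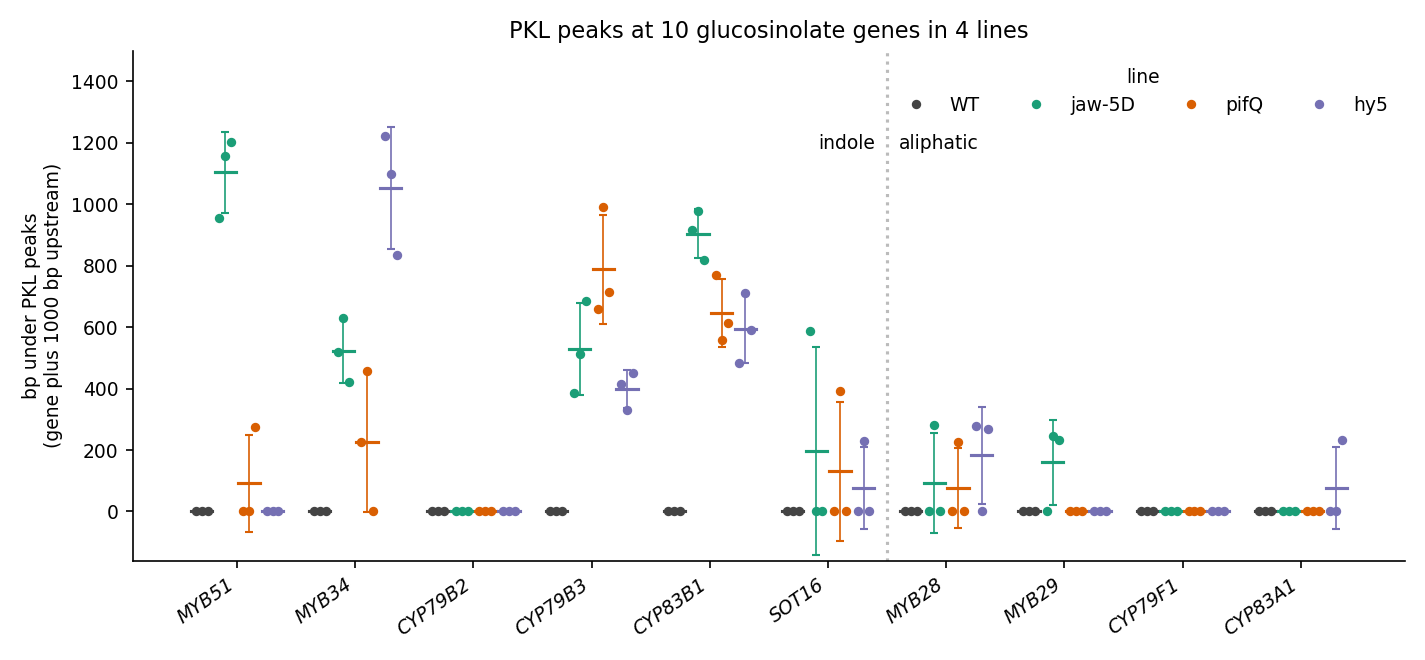
Base pairs under PKL peaks in each gene plus 1000 bp upstream; each point is 1 library, the bar its group mean and the whisker the SD of 3 libraries, with indole genes left and aliphatic genes right of the dotted line. MYB51 is highest in jaw-5D (954 to 1202 bp), MYB34 in hy5 (834 to 1223 bp), and all WT libraries sit at 0.

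**Figure D2:**
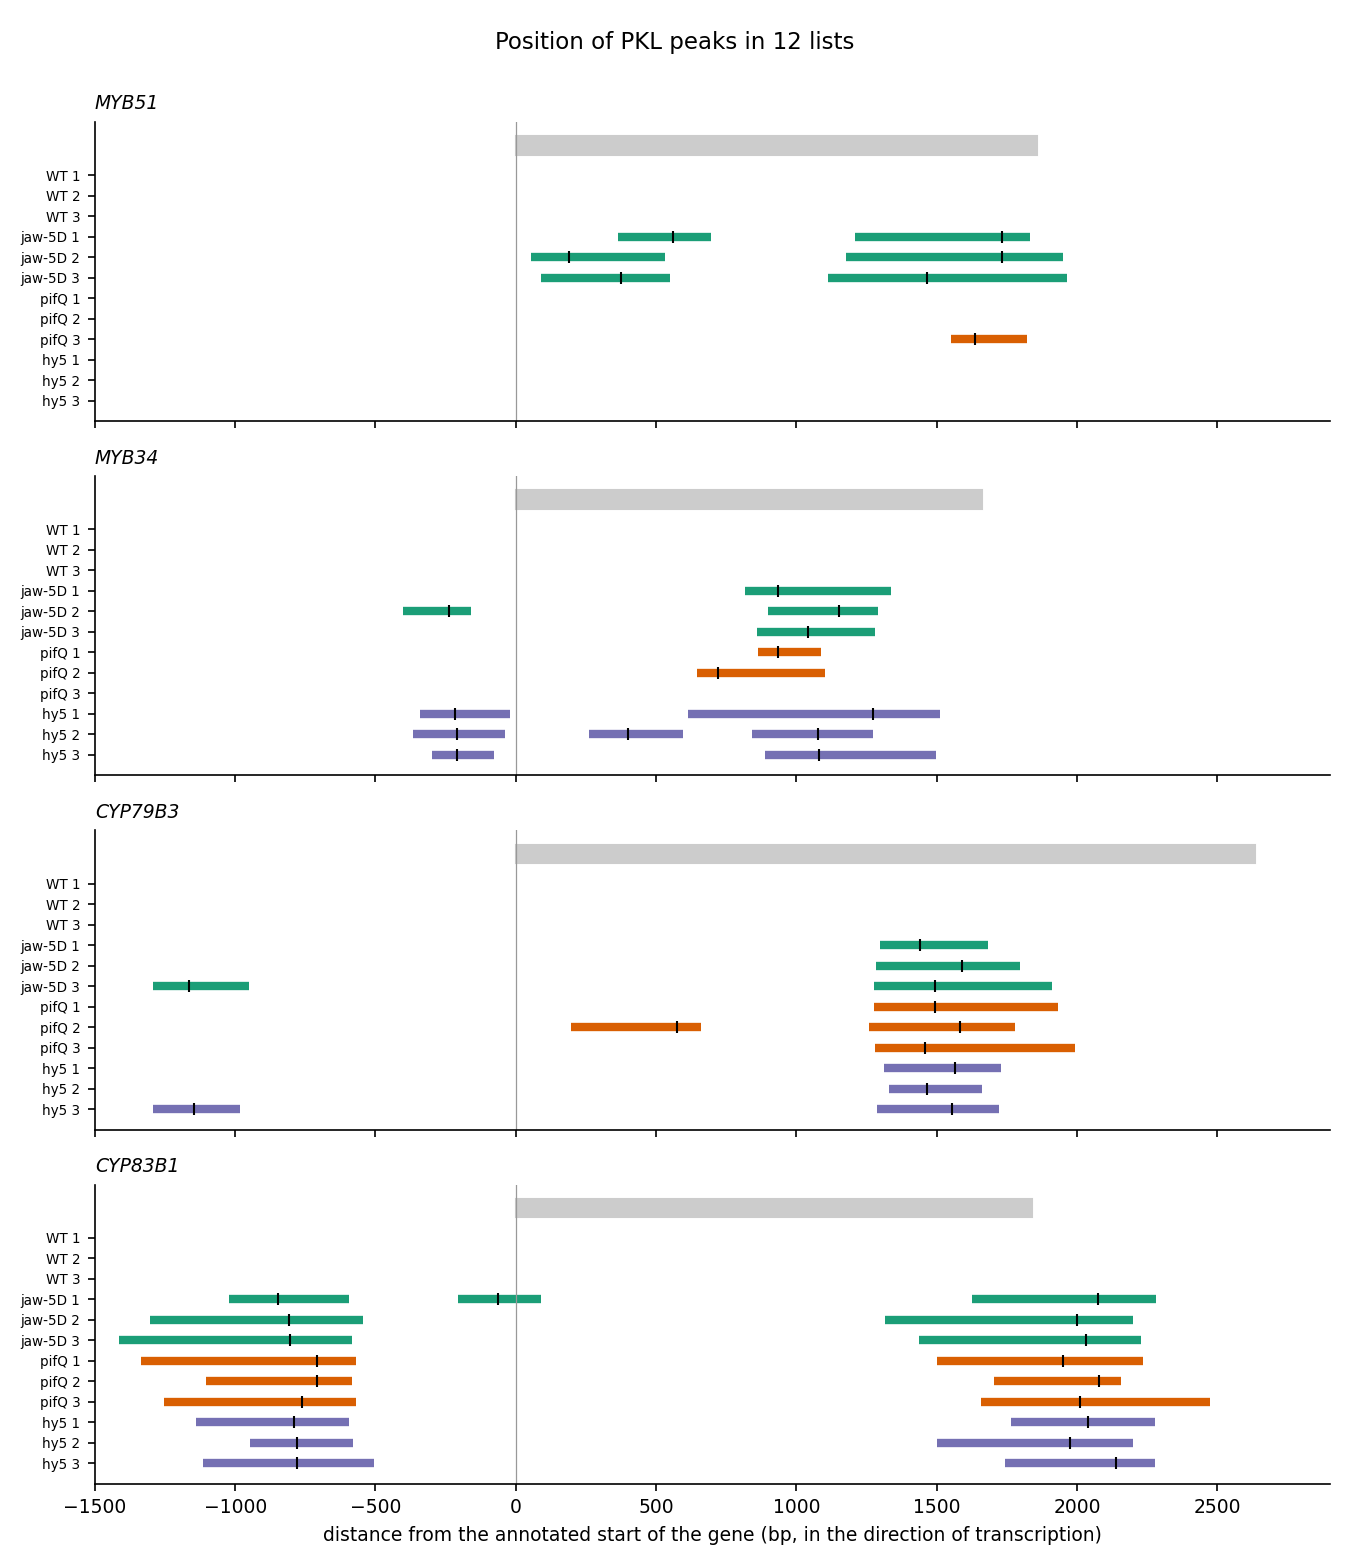
PKL peaks (bars) and their summits (ticks) in each of 12 lists along MYB51, MYB34, CYP79B3 and CYP83B1, with the annotated gene as a grey box and distance from its start in bp. In CYP79B3 each of the 9 mutant lists has a summit in the intron, between 1441 and 1588 bp, and the peaks of CYP83B1 lie at both ends of the gene.

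Across all genes the lines were compared with limma on log2(bp + 100), with Benjamini-Hochberg adjustment over 11782 genes and a threshold of 0.05. Of the 10 genes, 6 had at least 50 bp in 3 lists and entered this fit. MYB51 was called shorter in pifQ than in jaw-5D, 1 of 6 where 1.11% of genes tested were called shorter, and in hy5 than in jaw-5D, 1 of 6 where 1.9% were. Between hy5 and pifQ 0 of 6 were called in either direction, where 1.26% of genes were. Against WT, 4 of 6 were called longer in jaw-5D (background 67.8%), 3 in pifQ (68.6%) and 3 in hy5 (61.7%). Fitting pifQ and jaw-5D alone ended the call at MYB51. Since the choice of the 10 genes used these same lists, nothing is read from these counts. Lists cut to peaks of −log10 q of at least 10 left 0 bp at MYB51 and at MYB34 in every list and kept parts of CYP83B1 (6 lists) and CYP79B3 (2 lists).

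Among the other 59 pathway genes, 24 entered the PKL fit and 35 did not. Against WT, 17 were longer in jaw-5D, 20 in pifQ and 18 in hy5, and 0 were shorter (background 0.0255%, 0.017% and 0.0255%). The longer genes were 70.8%, 83.3% and 75.0% of those tested. Genes at 0 bp in WT entered the fit through the mutant lists alone, so nothing is read from these shares. Among genes with peaks in every list, log2 cover was higher by 1.15 (jaw-5D), 1.23 (pifQ) and 1.11 (hy5), and after libraries were centred on those genes the counts were 12, 11 and 12, against 35.2%, 33.2% and 32.8% of all genes. The median log2 difference of the 24 was 2.04, 2.46 and 2.38, against 1.97, 1.96 and 1.71 over all genes tested.

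The genes with the largest log2 differences from WT included an enzyme of side chain modification, core enzymes and breakdown genes. GSL-OH, an oxygenase of the aliphatic side chain, had 0 bp in all WT lists and 2041 ± 60.0, 1817 ± 333 and 1954 ± 259 bp in jaw-5D, pifQ and hy5 (limma adjusted p = 2.11e-07, 1.81e-07 and 2.25e-07). GSTF10, a glutathione transferase of the core pathway, went from 0 bp in WT to 1899 ± 145, 1138 ± 358 and 1506 ± 208 bp (limma adjusted p = 2.84e-07, 5.90e-07 and 4.39e-07). PEN2, a myrosinase of indole glucosinolates, had 0, 0 and 179 bp in WT and at least 961 bp in every mutant list (limma adjusted p = 2.27e-05, 6.92e-05 and 9.78e-05). All 9 mutant values of these 3 genes lay above their WT values. GSL-OH and GSTF10 passed the filter on low values through the mutant lists alone. Since genotype and list making cannot be told apart, p-values against WT here and in the next paragraph are not read as an effect of genotype. With lists cut at a −log10 q of 10, the calls at GSTF10 in all 3 mutants and at GSL-OH in pifQ and hy5 were lost, as was that at MYC2 in hy5. Most of the other pathway calls against WT were not kept at that cut either.

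MYC2, a jasmonate-response factor that works with the MYB activators, had 0, 0 and 1198 bp in WT, the last from the WT library with the most peaks. It was called longer in all 3 mutants, with 2416 ± 75.8 bp in jaw-5D, 1866 ± 293 bp in pifQ and 2160 ± 430 bp in hy5 (limma adjusted p = 0.00338, 0.00634 and 0.00511). After centring, the call in pifQ was lost (0.0662). The next 4 genes were at 0 bp in every WT list and passed the filter on low values through the mutant lists alone. GGP1, which trims the glutathione conjugate, was called longer in jaw-5D (1060 ± 226 bp), pifQ (728 ± 109 bp) and hy5 (527 ± 511 bp), with limma adjusted p = 0.00123, 0.00290 and 0.0247. In hy5 1 list had no peak at GGP1, and the calls in pifQ and hy5 were lost after centring (0.0569 and 0.312). The hy5 call at GGP1 was also lost without any 1 WT library and without hy5 replicate 1 or 3. In all, that call was lost in 8 of 13 settings. The nitrile-specifier gene NSP5 was called longer in jaw-5D (946 ± 640 bp), pifQ (897 ± 178 bp) and hy5 (407 ± 42.5 bp), with limma adjusted p = 0.000195, 0.000122 and 0.00152, the last lost after centring (0.0653). The hy5 call at NSP5 was lost in 2 of 14 settings, with limma adjusted p up to 0.0894. The beta-glucosidase gene PYK10 was called longer in jaw-5D (318 ± 137 bp), pifQ (1412 ± 651 bp) and hy5 (892 ± 913 bp), with limma adjusted p = 0.00998, 0.000185 and 0.00141, the first lost after centring (0.286). ESM1, an epithiospecifier modifier, was called longer in pifQ (492 ± 426 bp) and hy5 (701 ± 172 bp), with limma adjusted p = 0.00539 and 0.00145, and not in jaw-5D (219 ± 203 bp, 0.0607). After centring the pifQ call at ESM1 was lost (0.177). Between the mutant lines limma called 0 of the 24. At an unadjusted p under 0.05, there were 7 between pifQ and jaw-5D, 3 between hy5 and jaw-5D and 1 between hy5 and pifQ, where 1574, 1734 and 1421 of all 11782 genes passed.

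By likeness over the 12 PKL lists, the genes closest to CYP83B1 on log2(bp + 100) were AT5G60430 (Pearson r = 0.9964), AT4G29735 (0.9963) and AT3G49540 (0.996). All 3 were at 0 bp in WT and had peaks in all 9 mutant lists, and the 12 points share the split between WT and mutant lists.

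Among the 10 genes, H3K4me2 lay on the indole genes and hardly on the aliphatic ones, while the other marks did not divide them this way. None of the 10 genes carried an H3K4me1 peak in any of 6 lists, where 36.2% of nuclear genes were marked in all 3 WT libraries and 36.9% in all 3 pkl libraries. H3K4me2 lay on all 6 indole genes in all 6 lists, and on 0 of the 4 aliphatic genes in all 6. Of nuclear genes, 51.3% carried it in all 3 WT libraries and 52.5% in all 3 pkl libraries. MYB29, CYP79F1 and CYP83A1 had no H3K4me2 in any list, and MYB28 had 0, 352 and 374 bp in WT and 309, 0 and 314 bp in pkl. H3K4me3 lay on all 6 indole genes and on MYB28 in all 6 lists, and on CYP83A1 in 5, while MYB29 and CYP79F1 had none. Its share of nuclear genes was 48.2% in WT and 48.9% in pkl. The division by branch did not extend to the wider list: the indole genes MYB122, IGMT1 and IGMT2 had neither mark in any list, and SOT17 and GSL-OH of the aliphatic branch had both in all 6.

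Within the indole branch, H3K4me2 cover differed most at the 2 CYP79B paralogs, in opposite directions. CYP79B2 had 1125, 709 and 1027 bp in WT and 1336, 1366 and 1519 bp in pkl, with no overlap (ratio of means 1.48). CYP79B3 had 1278, 1380 and 1312 bp in WT and 717, 781 and 1037 bp in pkl, again with no overlap (ratio 0.639). Both genes carry H3K4me2 in 2 blocks, and the block in the last exon was present in all 6 lists at both. The block in the first exon of CYP79B2 was listed in 2 of 3 WT lists at 348 and 315 bp and in all 3 pkl lists at 660, 723 and 831 bp. That of CYP79B3 was listed in all 3 WT lists at 502, 598 and 602 bp and in 1 pkl list at 283 bp. By −log10 q, the first-exon blocks of CYP79B2 stood at the 1.47th to 25.1st percentile of their lists. Those of CYP79B3 stood at the 21.2nd to 46.3rd, and the last-exon blocks of both genes at the 63.5th to 94.7th. The lowest block, at CYP79B2 in WT replicate 1, had a −log10 q of 1.95, near the floor of its list (1.30). Among genes with H3K4me2 in every list, log2 cover was higher in pkl by 0.16.

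The other indole genes kept similar H3K4me2 cover in both lines. MYB51 had 1413 ± 126 bp in WT and 1319 ± 171 bp in pkl, MYB34 725 ± 194 and 626 ± 190 bp, and CYP83B1 1437 ± 36.1 and 1441 ± 105 bp. Values of both lines overlapped at these 3 genes. SOT16 had 1056, 961 and 1107 bp in WT and 954, 943 and 933 bp in pkl, a small gap without overlap. Of 7 genes tested, 1 was higher and 2 were lower without overlap, where 18.8% and 3.8% of genes were. Of the 10 genes, 7 entered the limma fit for H3K4me2 and 0 were called, where 1.78% of 19091 genes were. The H3K4me2 contrast was known at the choice of the genes, so nothing is read from these counts.

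H3K4me3 showed the clearest separation between pkl and WT at CYP83B1 and MYB28, again in opposite directions. CYP83B1 had 660, 678 and 748 bp in WT and 1294, 1332 and 1347 bp in pkl. The lowest pkl value was well above the highest WT value, and the mean went from 695 ± 46.5 to 1324 ± 27.3 bp, a ratio of 1.90. The mark began 65 to 165 bp after the start in all 6 lists and ended 797 to 864 bp after it in WT but 1358 to 1452 bp in pkl, so the difference lay on the downstream side. H3K4me2 already covered that stretch in WT.

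MYB28 had 968, 1300 and 825 bp of H3K4me3 in WT and 365, 341 and 355 bp in pkl. No values overlapped, and the mean was 1031 ± 244 bp in WT and 354 ± 12.1 bp in pkl, a ratio of 0.343. The stretch near the start was kept and ended 546 to 625 bp after it in pkl, whereas in each WT list H3K4me3 reached 1298 to 1521 bp. These MYB28 peaks ranked low in their lists by −log10 q, at the 3.10th to 12.5th percentile in WT and the 4.01th to 4.99th in pkl. Those of CYP83B1 lay at the 6.94th to 12.4th percentile in WT and the 15.5th to 16.6th in pkl. In limma over 16781 genes, with 8 of the 10 tested, CYP83B1 was 1 of 8 called longer (background 1.14%) and MYB28 1 of 8 called shorter (background 0.387%). These counts, too, use a contrast known at the choice, so nothing is read from them. The call at MYB28 was lost with the replicate number as a block and when WT replicate 1 or any pkl library was left out, with its direction kept. Removing peaks under a −log10 q of 10 ended the call at CYP83B1, again in the same direction, and took MYB28 out of the fit.

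At 3 genes smaller differences went the way of CYP83B1. MYB34 had 665, 694 and 579 bp in WT and 886, 1152 and 718 bp in pkl, CYP79B3 588, 565 and 550 bp against 657, 674 and 669 bp, and SOT16 961, 930 and 991 bp against 1140, 1171 and 1003 bp. At these 3 genes every pkl value lay above every WT value, and none was called. With CYP83B1 that makes 4 of 8 genes higher without overlap, where 16.2% of genes tested were. MYB28 went the other way. The contrast was known at the choice of the genes, so nothing is read from this count. MYB51 (738 to 1341 bp in WT, 979 to 1136 bp in pkl), CYP79B2 (469 to 625 and 575 to 620 bp) and CYP83A1 (251 to 441 and 0 to 439 bp) overlapped.

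The place of H3K4me3 was unusual at the CYP79B pair. In WT its summits lay 78.5% to 79.9% of the way along CYP79B2 and 79.5% to 81.2% along CYP79B3, in the last exon of both. Over 15234 nuclear genes with a summit in every WT list, the median was 12.4%, and 2.72% of them had every summit past the midpoint. The next gene, on the same strand, starts 100 bp after CYP79B2 (AT4G39952) and 499 bp after CYP79B3 (AT2G22335), but the H3K4me3 peaks ended inside both CYP79B genes. In pkl the mark stayed in the last exon. The WT peaks of the pair ranked low by −log10 q, at the 3.33th to 7.56th percentile in CYP79B2 and the 14.1st to 19.6th in CYP79B3. Among the other members the median summit was between 13.5% (MYB51) and 48.6% (MYB34) of the gene. MYB34 carried H3K4me3 at both ends, with a summit in its first exon and another in its last exon, 1265 to 1308 bp after the start, in all 6 lists.

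**Figure D3:**
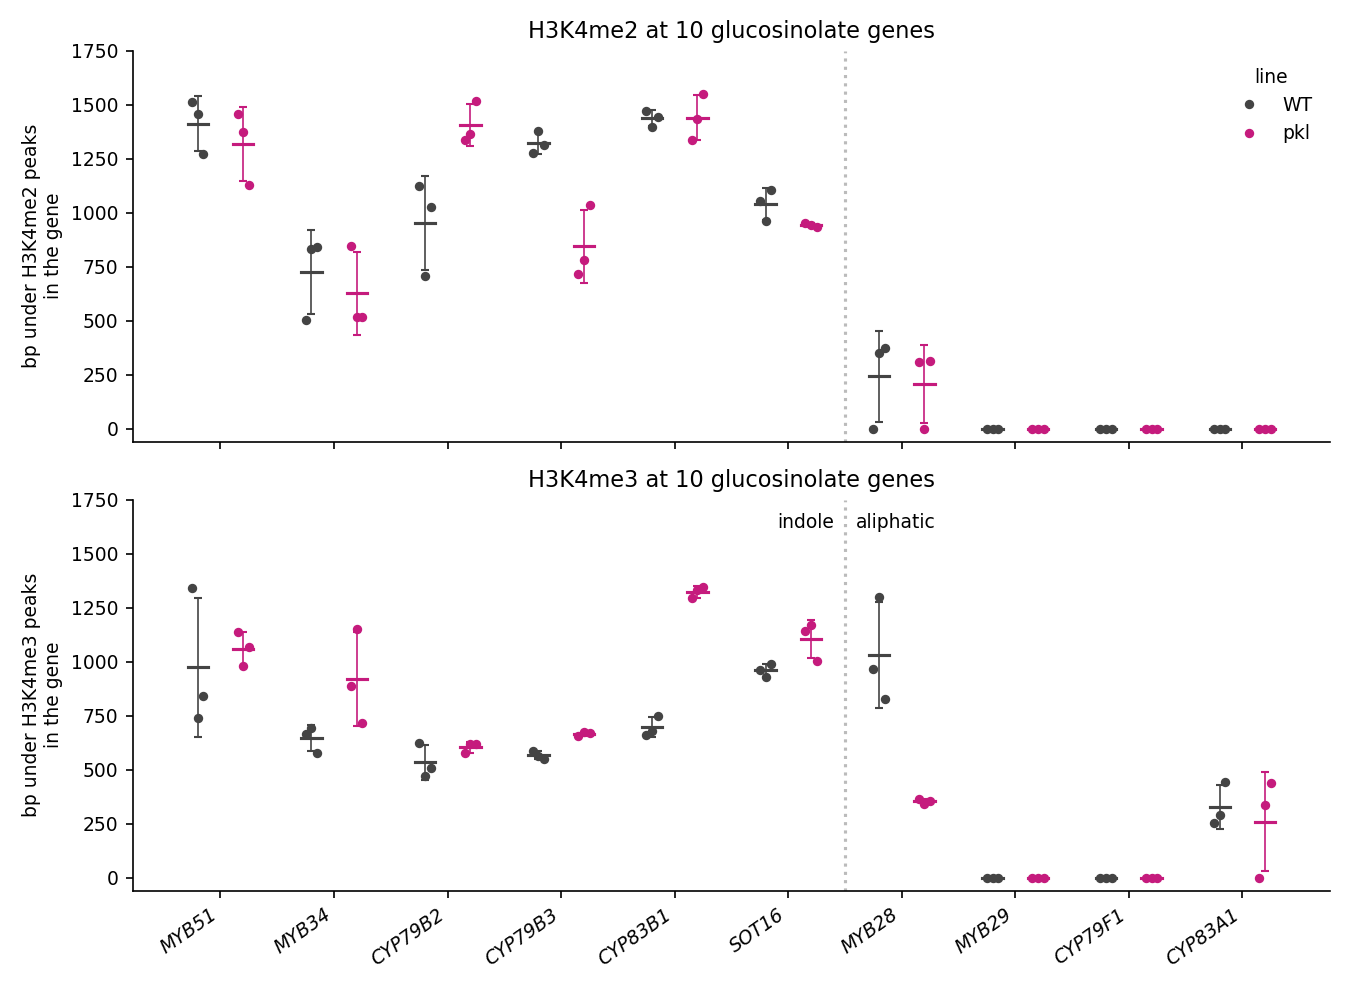
Base pairs under H3K4me2 (top) and H3K4me3 (bottom) peaks in each gene, 1 point per library with the group mean and SD of 3 libraries, for WT (grey) and pkl (magenta). H3K4me3 of CYP83B1 is higher in pkl (1294 to 1347 bp) than in WT (660 to 748 bp), that of MYB28 is lower, and 3 of 4 aliphatic genes have no H3K4me2.

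**Figure D4:**
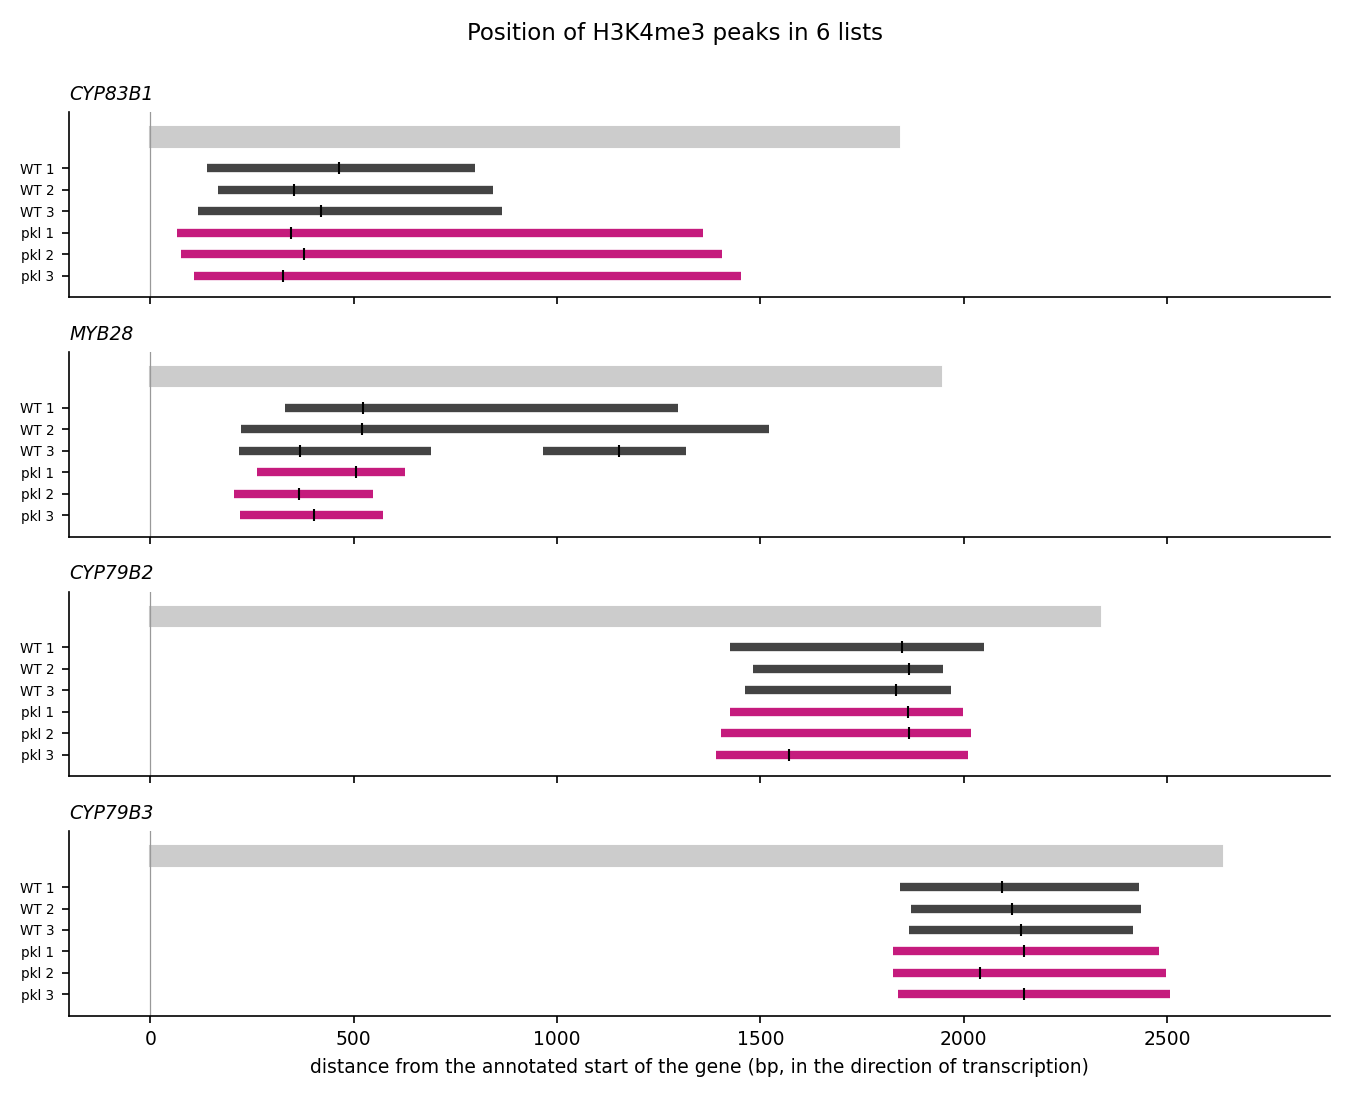
H3K4me3 peaks (bars) with summits (ticks) in 3 WT and 3 pkl lists along 4 genes, with the annotated gene as a grey box and distance from its start in bp. In pkl the peak runs further into CYP83B1 and less far into MYB28, while at CYP79B2 and CYP79B3 it lies in the last exon in both lines.

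Of the other 59 pathway genes, few differed in H3K4 cover between pkl and WT. For H3K4me1, 16 were tested and 1 was called: UGT74C1, a glucosyltransferase of the aliphatic core, had 832, 808 and 533 bp in WT and 0 bp in all 3 pkl libraries (724 ± 166 bp in WT, limma adjusted p = 0.00259). For H3K4me2, 40 were tested and 1 was called: ESM1 had 218, 420 and 328 bp in WT and 0 bp in all 3 pkl libraries (322 ± 101 bp in WT, limma adjusted p = 0.00844, and 0.00872 with libraries centred, which removes a shift of 0.16 in log2). Of all genes tested, 0.148% and 0.587% were called shorter. Both genes passed the filter on low values through WT alone, so nothing is read from these counts. With no filter their limma adjusted p-values were 0.00399 and 0.00999. Both calls were lost with the replicate number as a block (limma adjusted p = 0.0826 and 0.0932) and when pkl replicate 1 or 2 was left out, and that of ESM1 also without pkl replicate 3. Without a WT library both fell below the filter on low values.

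For H3K4me3, limma called 0 of 39, with 9 at an unadjusted p under 0.05, where 2242 of 16781 genes passed. The median log2 difference was 0.08, against 0.03 over all genes tested. Groups did not overlap at 11 of the 39, with 9 higher and 2 lower in pkl, where 16.2% and 3.64% of genes were. Sulfation genes had 3 of 4 on the higher side, none called: SOT17 went from 542 to 819 bp in the mean, SOT18 from 859 to 1185 bp and APK2 from 370 to 618 bp. UGT74C1 and CYP81F4 were the 2 on the lower side, from 601 to 180 bp and from 793 to 203 bp. These 5 were chosen for mention after their values were seen.

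In pkl, RNA of all 10 genes was detected in every library. In order of TPM per gene, CYP83A1 came first with 231.0, 242.3 and 232.6, then CYP83B1 with 143.5, 153.6 and 148.1, and CYP79F1 with 97.2, 110.3 and 110.6. These 3 did not overlap and stood at the 98.1st, 96.8th and 95.4th percentile of nuclear genes. SOT16 followed with 61.7, 65.7 and 71.8 TPM, MYB28 with 43.8, 50.1 and 46.7, CYP79B2 with 36.0, 33.8 and 45.6, and CYP79B3 with 33.9, 36.6 and 38.8. MYB28 overlapped CYP79B2, and CYP79B2 overlapped CYP79B3, so the order within each of these pairs is not beyond the spread, while all values of MYB28 lay above those of CYP79B3. MYB34 had 21.7, 24.6 and 21.8 TPM, MYB29 12.5, 14.3 and 16.0, and MYB51 9.64, 7.59 and 10.4. The lowest member, MYB51, was still at the 62.7th percentile. The median over the 10 genes was 42.7 TPM. In whole seedlings, few cells with much RNA and many with little cannot be told apart.

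Among the 4 aliphatic members, the order by RNA was not the order by H3K4 cover. CYP79F1 held 106 ± 7.65 TPM with no peak of any of the 3 marks in 18 lists. MYB29, the lowest of the 4 in RNA, held 14.2 ± 1.79 TPM and also had none. MYB28 held 46.9 ± 3.17 TPM, with 1031 ± 244 bp of H3K4me3 in WT and 354 ± 12.1 bp in pkl. CYP83A1, the highest of the 10 in RNA, had a short H3K4me3 peak in 5 of 6 lists, at the 1.90th percentile of its list by −log10 q or below. In the indole branch MYB51, the lowest of the 10 in RNA, had 973 ± 322 bp of H3K4me3 in WT and 1061 ± 78.7 bp in pkl.

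Some genes of chain elongation, aldoxime formation and breakdown also had RNA and no H3K4 peak. Of the 69 pathway genes, 17 had no H3K4 peak in any of 18 lists. At 30 TPM or more in every pkl library, 9 of 46 pathway genes (19.6%) had none, against 126 of 5207 nuclear genes (2.42%). They were CYP79F1 and its copy CYP79F2 (40.7 ± 0.822 TPM), the chain elongation genes BCAT4 (214.4 to 236.3 TPM), MAM3 (135.5 ± 11.3 TPM), IPMI2 (168 ± 9.51 TPM) and the transporter gene BAT5 (40.4 ± 3.97 TPM), the myrosinase genes TGG1 (914 ± 15.5 TPM) and TGG2 (245 ± 27.1 TPM), and the nitrile-specifier gene NSP1 (294 ± 26.2 TPM). By role these were 4 of 10 chain elongation genes, 2 of 4 aldoxime-forming genes and 3 of 7 breakdown genes at that level, and 0 of 9 core genes, 0 of 5 sulfation genes and 0 of 5 side chain genes. TGG1 and TGG2 are made in myrosin cells, whose regulator FAMA was at 7.95 TPM. No RNA of sorted cells was analysed, and the part of cell type in this pattern was not tested. The minimum of 30 TPM was chosen after the data were seen. With 10 or 100 TPM the share was 22.8% (13 of 57) or 28.6% (6 of 21), against 2.76% and 2.27% of nuclear genes. The 69 genes were themselves chosen with earlier results of these data known, so nothing is read from these shares.

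**Figure D5:**
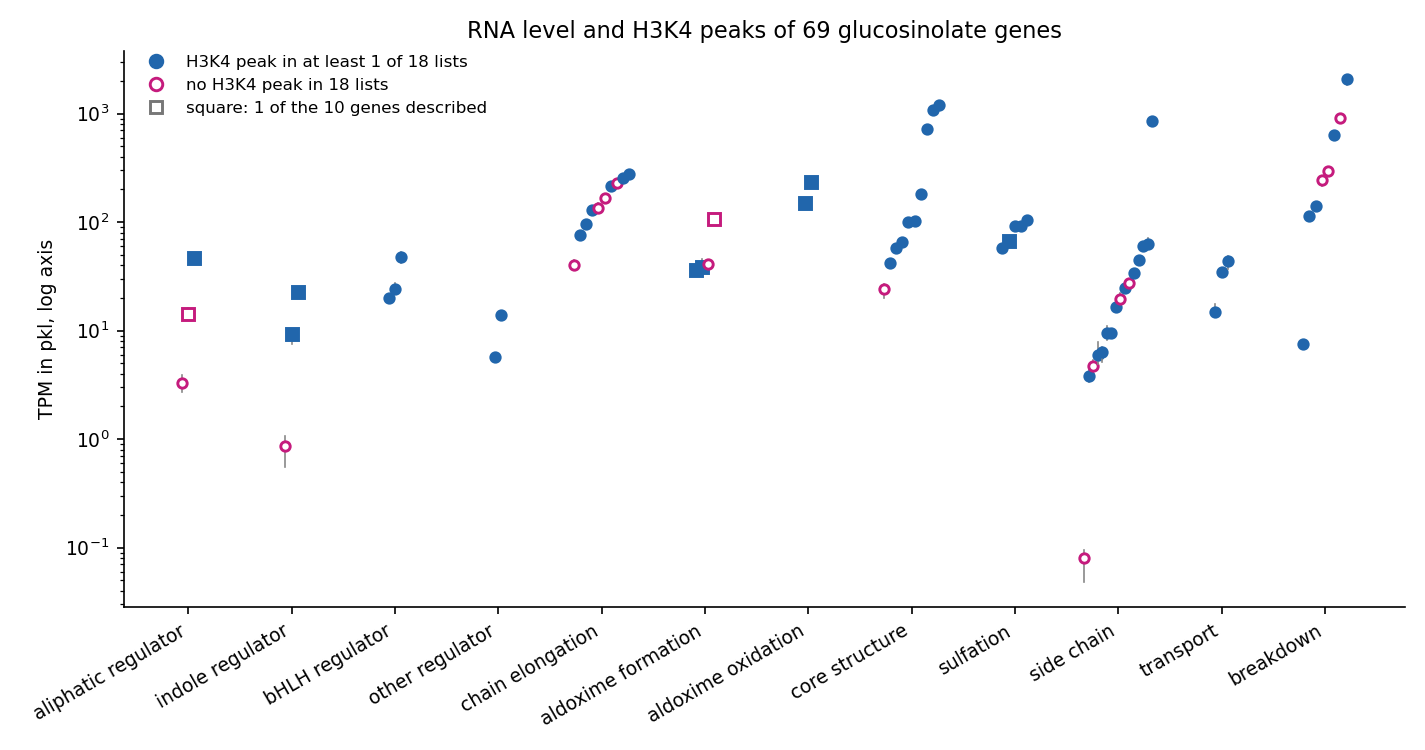
Mean TPM in pkl on a log axis for 69 pathway genes grouped by role, with thin lines from the lowest to the highest of 3 libraries; open symbols had no H3K4 peak in 18 lists, and squares are the 10 genes described. Open symbols include CYP79F1 at 106 TPM and TGG1 at 914 TPM.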

How the data were processed

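Peak lists were made by the authors, 1 per library. Per the submitters' processing notes the tools were MACS2 2.2.5, Bowtie2 2.3.3, HISAT2 2.1.0, deepTools, SAMtools 1.6 and fastp, on TAIR10, with no step given for each. Each deposited list gives a score, a fold enrichment and −log10 p and q per peak, which are the authors' own. Control libraries used in calling are not given in the sources used here. The deposited gene counts were raw. The deposited table named FPKM holds TPM: in each column every value is the count per kb of exon over the summed count per kb (difference at most 0.0046%), and columns sum to 999954 to 999956.

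Bases under peaks were summed per gene (marks) or per gene plus 1000 bp upstream (PKL) for 33331 nuclear genes and tested with limma 3.58.1 (R 4.3.3) on log2(bp + 100), two-sided. Genes needed 150 bp (marks) or 50 bp (PKL) in 3 libraries. The 12 PKL lists were fitted together. The fit was also run on simulated log2 values, drawn as normal with a common spread. Those values held no groups without any cover, unlike the real lists, so that run says nothing of such genes. A fold on this scale understates changes of short cover. The 6 unlabelled RNA columns, 10 Hi-C samples and 15 input samples were not used here, and expression was not compared between genotypes. Deviations of each gene from its group mean were correlated between same-numbered libraries of different groups. These correlations were −0.088 to 0.0813, so the numbers were not taken as pairs. RNA replicates differed by more than counting noise.

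The members, the 59 further genes and the tests were chosen with earlier results of these data known. Named further genes were up to 5 called genes per comparison with the largest log2 difference and no overlap of groups. All 69 gene IDs matched the RefSeq table of gene names. Strand use in counting is not given in the sources used here. Alternatives covered centring, pseudocount, filters, peak cut-offs, window, replicate block and left-out libraries.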

Additional observations from a re-analysis of the deposited data

How the results depend on the processing

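Counts here are pathway genes called of 69, members included, in either direction. Cutting the lists at a −log10 q of 10, H3K4me1 had 0 (reported above, 1), H3K4me2 0 (1) and H3K4me3 1 (2). That 1 H3K4me3 call was at neither CYP83B1 nor MYB28. At the same cut PKL had 3 in jaw-5D (21), 3 in pifQ (23) and 2 in hy5 (21) against WT. It had 0 between pifQ or hy5 and jaw-5D (1 each). With equal numbers of peaks H3K4me2 had 2, and PKL 0 in each of the 3 comparisons with WT and 0 in pifQ and in hy5 against jaw-5D. Centring gave 13 in pifQ against WT, and the gene without its upstream part gave 11 in hy5 against WT. Fitting only the 2 groups gave 0 in pifQ against jaw-5D and 1 in hy5 against pifQ (0). With a replicate block, H3K4me1 and H3K4me2 had 0 and H3K4me3 had 1, with CYP83B1 called and MYB28 not, while PKL had 23, 23 and 22 against WT and 1, 1 and 0 between mutants. Over all genes the block took longer and shorter calls from 74 and 20 to 0 and 0 (H3K4me1, with 778 at an unadjusted p under 0.05), from 227 and 112 to 68 and 50 (H3K4me2), and from 191 and 65 to 121 and 44 (H3K4me3). Between same-numbered libraries, deviations from the group means had correlations all under 0.1. Leaving out 1 library gave 0 to 1 for H3K4me1, 0 to 0 for H3K4me2 and 1 to 3 for H3K4me3. For PKL it gave 18 to 22 (jaw-5D), 22 to 23 (pifQ) and 18 to 21 (hy5) against WT, 1 to 1, 1 to 2 and 0 to 1 between mutants. BCAT3 in hy5 against WT went to −0.16 in log2 when centred. The members' median was 31.6 as FPKM from nuclear counts, and 41.1 to 44.1 TPM with 1 library left out. Pathway genes without H3K4 peaks, with settings chosen after seeing the data, numbered 13, 6, 7 and 9 at 10 TPM, at 100 TPM, with 1000 bp upstream and in pkl lists alone. The cause of these differences was not tested. Cover says nothing of peak height, depth of the lists is unknown, and 3 libraries per group limit all tests.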
